A study of Mus musculus with 8 samples.

Results

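The enzymes of xenobiotic metabolism were followed through 8 RNA-seq libraries of cultured mouse fetal liver cells. The set was chosen by gene symbol alone, as the rows named for cytochrome P450 families Cyp1 to Cyp4, the UDP-glucuronosyltransferase families Ugt1a and Ugt2, the glutathione S-transferases (Gst) and the cytosolic sulfotransferases (Sult). It held 130 of the 23467 genes analysed. There were 3 Cyp1, 48 Cyp2, 7 Cyp3, 15 Cyp4, 8 Ugt1a, 10 Ugt2, 21 Gst and 18 Sult genes.

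Xenobiotic metabolism clears drugs, toxins, steroids and bile pigments in steps. In phase 1, cytochrome P450 enzymes of the endoplasmic reticulum oxidise a substrate. In phase 2, transferases couple the product to glucuronic acid, glutathione or sulfate, so that transporters can carry it into bile or blood. The adult hepatocyte is the main site of these reactions, and many of the genes are low in the fetal liver and rise around birth and weaning, whereas bile duct cells and immature liver cells keep a narrower set in which glutathione S-transferases are prominent.

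The libraries came from hepatoblasts, the bipotent progenitors of hepatocytes and biliary epithelial cells (BECs), isolated from livers of B6;129 mixed mouse embryos at E14.5. Cells were either kept in culture (iHB), matured towards hepatocytes with oncostatin M at 12.5 ng/ml for 5 days by the labels (iHP) or grown in Matrigel for 14 days towards BECs (iBEC). The study's methods give a longer oncostatin M treatment than the labels. Wild type embryos gave the control libraries, 1 for each stage. Embryos of the genotype Lats1-/-;Lats2f/fl;Alb-cre, designated L1L2_Alb, gave 1 iHB, 2 iHP and 2 iBEC libraries. These embryos lack *Lats1* in every cell and lose *Lats2* where the Albumin promoter drives Cre, so that cells of other lineages in the culture keep *Lats2*. The study's methods give a hepatoblast medium with dexamethasone, a glucocorticoid that itself acts on P450 genes. They state no separate medium for the Matrigel culture. The comparisons ask how removal of the LATS kinases, which restrain YAP and TAZ, and the culture stage relate to these enzymes. The L1L2_Alb libraries of iHP and of iBEC are numbered 1 and 2 in their titles, but a second label gives both libraries of a pair the same replicate number. No source says whether a pair came from separate embryos or cultures, so that the spread within a pair may be technical. The p-values rest on that spread and, in the fit of stage and genotype, also on differences of the genotype effect between stages. That fit has 4 residual degrees of freedom, and 2 remain with all 6 groups fitted.

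The libraries held 18436865 to 33229075 reads, as recovered from the steps between the deposited values. Values are in RPKM, reads normalised to the length of the transcript and the size of the library. Summed over exons, *Lats1* was at 5.39 to 11.2 RPKM in the controls and 7.12 to 22.7 RPKM in the libraries labelled L1L2_Alb, and *Lats2* was at 6.90 to 10.1 RPKM and 10.9 to 27.6 RPKM. *Lats2* lay above the control of its stage in every library labelled L1L2_Alb, and *Lats1* was not lower there as a group. The study itself reports reduced LATS expression in its cultured L1L2_Alb cells. The RPKM values pool deleted and retained exons, so they do not check the labels. The genotype is taken from the labels in every direction given here.

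Between 47 and 71 of the 130 enzymes reached 1 RPKM in a library. Control iHB had 64 and L1L2_Alb iHB 47. Control iHP had 65, whereas the L1L2_Alb iHP libraries had 55 and 49. Control iBEC had 71, and the L1L2_Alb iBEC libraries had 69 and 68. The L1L2_Alb library thus held fewer than its control by 10 or more genes in iHB and iHP, whereas the iBEC libraries lay within 3 genes of each other. Over all genes of the table the share at 1 RPKM or more ran from 52.7% to 58.0%, and over the enzymes from 36.2% in L1L2_Alb iHB to 54.6% in control iBEC. Of the enzymes, 84 reached 1 RPKM in some library, 41 did so in all 8, and 13 had no read in any library. The same counts over the 23467 genes analysed were 14802, 11294 and 3442. All 8 Ugt1a entries, which share reads, are among the 41 and in the count of every library.

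**Figure D1:**
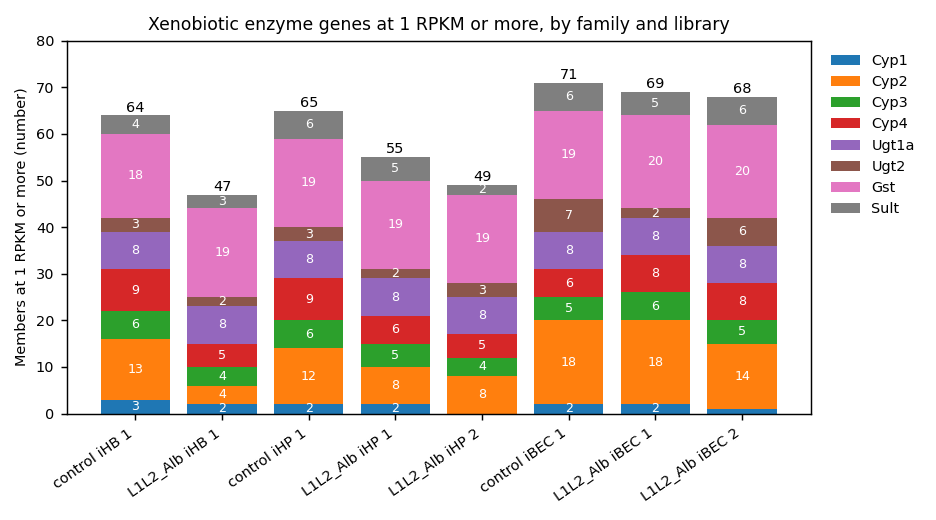
Number of enzymes at 1 RPKM or more in each of the 8 libraries (vertical axis), with coloured segments for the 8 families and the total above each bar. The Cyp2 segment ranges from 4 genes in L1L2_Alb iHB to 18 in control iBEC and L1L2_Alb iBEC 1, whereas the Gst segment stays between 18 and 20.

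The difference in number lay mostly among the P450 genes. In the order control iHB, L1L2_Alb iHB, control iHP, L1L2_Alb iHP 1 and 2, control iBEC and L1L2_Alb iBEC 1 and 2, which is kept below for every row of 8 values, Cyp2 genes at 1 RPKM or more numbered 13, 4, 12, 8, 8, 18, 18 and 14 of 48. The Cyp2d subfamily, relatives of the human debrisoquine hydroxylase, contributed 5, 1, 5, 4, 4, 9, 9 and 5 of its 9 genes. All Cyp2d genes therefore reached 1 RPKM in control iBEC and L1L2_Alb iBEC 1. Cyp4 genes, mostly fatty acid omega-hydroxylases, numbered 9, 5, 9, 6, 5, 6, 8 and 8 of 15. Within them the Cyp4a subfamily, known targets of the fatty acid receptor PPARα, gave 3, 0, 3, 1, 0, 0, 1 and 0 of 4. Cyp1 genes numbered 3, 2, 2, 2, 0, 2, 2 and 1 of 3, and Cyp3 genes 6, 4, 6, 5, 4, 5, 6 and 5 of 7.

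The phase 2 families differed from one another in number. In every library 18 to 20 of the 21 Gst genes and all 8 Ugt1a entries reached 1 RPKM. The Ugt1a entries share reads, so their count does not show that each of the 8 is expressed at that level. Ugt2 genes numbered 3, 2, 3, 2, 3, 7, 2 and 6 of 10, so that control iBEC and L1L2_Alb iBEC 2 held the most while L1L2_Alb iBEC 1 held 2. Sult genes numbered 4, 3, 6, 5, 2, 6, 5 and 6 of 18. The genes with no read in any library were *Cyp2b23*, *Cyp2c38*, *Cyp2j8*, *Cyp2j12*, *Cyp2w1*, *Gstt4*, *Sult1c1*, *Sult2a5*, *Sult2a6*, *Sult2a7*, *Sult3a1*, *Ugt2a1* and *Ugt2a2*.

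Each of the 5 genes at 1 RPKM or more in exactly 1 library had it in a control library. How such genes split between genotypes over the whole table was not counted. *Cyp1a2*, a hepatocyte P450 that oxidises caffeine and aromatic amines, had 153 reads (2.84 RPKM) in the control iHB library but only 4 to 38 reads elsewhere. *Cyp2c40* and *Cyp2c67* reached 1.85 and 1.46 RPKM in control iHB and had no reads in L1L2_Alb iHB against 95 and 71 reads. With a floor of 3 reads in that library, this made them at least 31.9-fold and 23.9-fold lower. Of their 50-base transcript windows, 70.2% and 52.8% recur in other enzymes of the set, so that the counting may have divided reads between relatives. *Sult2a2*, a steroid sulfotransferase, reached 1.98 RPKM in control iHP and *Ugt2a3* 1.46 RPKM in control iBEC. Of the enzymes, 63 had a mean under 1 RPKM over the 8 libraries and were not tested, 17 of which reached 1 RPKM somewhere.

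Phase 2 enzymes gave the highest levels. Per length, *Gstp1*, the pi-class glutathione transferase, was at 477, 239, 576, 356, 459, 597, 814 and 565 RPKM. *Sult1a1*, the phenol sulfotransferase, reached 538 RPKM in control iHP, and *Gsto1*, an omega-class enzyme that reduces dehydroascorbate and methylated arsenic, reached 1005 RPKM in L1L2_Alb iHP 2. Among the P450 genes the highest single values were those of *Cyp2c70*, a mouse bile acid hydroxylase, at 131 RPKM in control iBEC, and of *Cyp2d26* at 84.0 RPKM in the same library. The adult hepatocyte P450 *Cyp2e1*, which oxidises ethanol and acetaminophen, was at 0.16 to 0.36 RPKM (6 to 17 reads) in every library. The fatty acid hydroxylase *Cyp4a14* lay at 0 to 0.17 RPKM. *Cyp2r1*, a vitamin D 25-hydroxylase, lay at 0.30 to 1.31 RPKM and passed 1 RPKM in control iBEC and L1L2_Alb iBEC 1. By contrast *Cyp3a16*, known as a fetal and neonatal member of Cyp3a, lay at 3.51 to 41.6 RPKM.

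**Figure D2:**
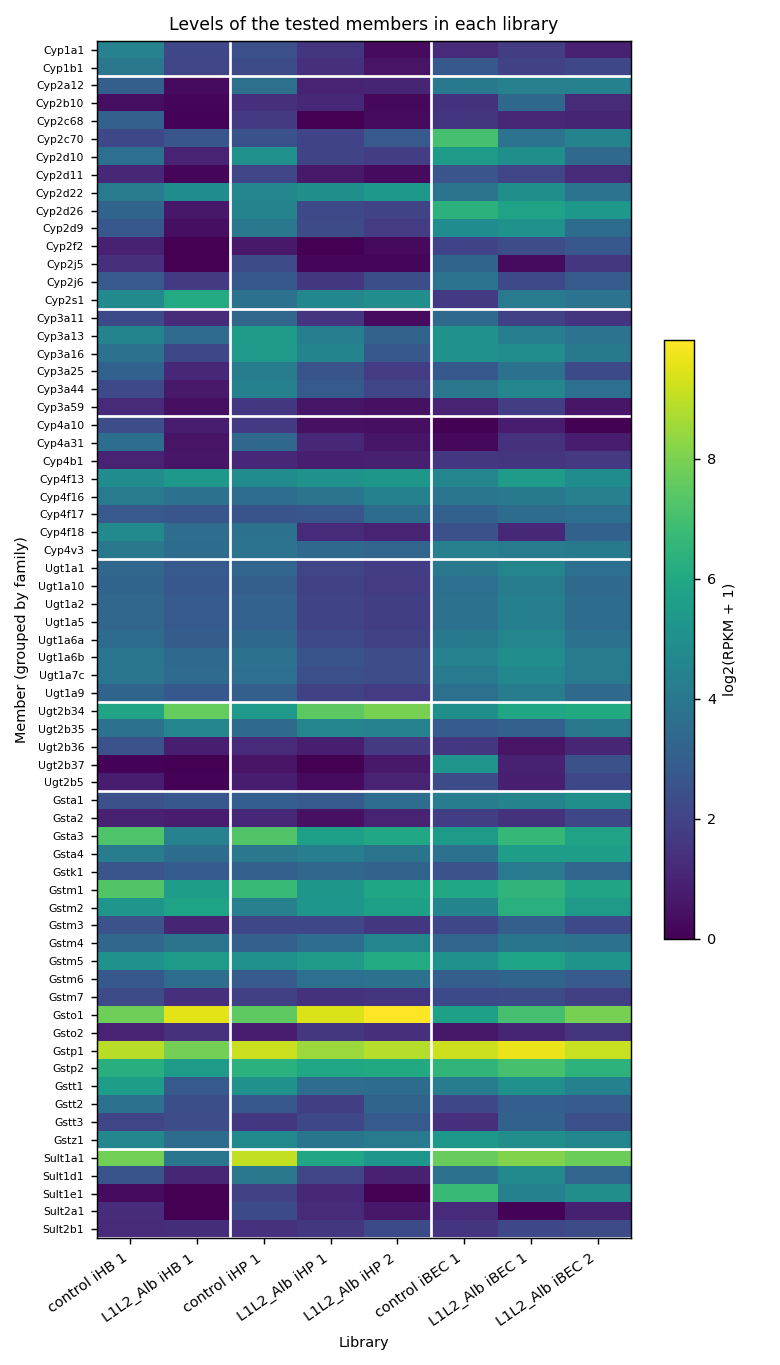
Levels of the 67 tested enzymes (rows, grouped by family with white lines between families) in the 8 libraries (columns, grouped by stage), coloured by log2(RPKM + 1). *Gstp1* and *Gsto1* are the brightest rows, and most Cyp2 and Cyp3 rows are darker in the L1L2_Alb iHB and iHP columns than in the control column of that stage.

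Between genotypes, 11 of the 67 tested enzymes were lower and 4 were higher in the libraries labelled L1L2_Alb, at an adjusted p under 0.05 by limma with the stage in the model. Over all 13421 genes tested, 3.37% were called lower and 6.20% higher. Those called lower were phase 1 enzymes except for *Gstz1* and *Sult2a1*, and those called higher were *Cyp2s1*, *Gsto1*, *Gstm2* and *Ugt2b34*. The median log2 fold change of the tested enzymes was -0.53, against 0.06 over all genes. A negative estimate was found for 49 of the 67, and for 5929 of the 13421 genes tested. The 49 include all 8 Ugt1a entries, which share reads. Fold changes here are differences in log2(RPKM + 1), which understates those of low genes. In bulk RNA, fewer cells of a type and less RNA per cell cannot be told apart.

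Of the Cyp2d genes, 3 were called lower. *Cyp2d10* was at 11.6, 0.93, 32.3, 3.16, 2.54, 42.6, 29.9 and 9.75 RPKM. Each L1L2_Alb library lay below the control of its stage, and the gap was widest in iHB and iHP. The log2 fold change was -2.33 ± 0.43 (SE, 3 control and 5 L1L2_Alb libraries, adjusted p = 0.0161). *Cyp2d26* was at 8.31, 0.57, 21.0, 3.66, 3.17, 84.0, 52.4 and 38.6 RPKM, lower in 5 of 5 L1L2_Alb libraries by -1.87 ± 0.31 (adjusted p = 0.0111). *Cyp2d11* gave -1.19 ± 0.27 (adjusted p = 0.0340). Of its 50-base transcript windows, 36.0% recur in other enzymes of the set, against 33.6% for *Cyp2d10*, so that the counting may have divided reads between them. *Cyp2d22*, a more distant relative, had a positive estimate of 0.61 ± 0.27 and was not called (adjusted p = 0.189).

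*Cyp2j5*, an arachidonic acid epoxygenase of liver and kidney, was at 1.54, 0, 3.89, 0.12, 0.14, 8.36, 0.21 and 2.01 RPKM. It was below the control of its stage in 5 of 5 L1L2_Alb libraries, with no reads in L1L2_Alb iHB against 160 in its control, at least 53.8-fold lower at the floor of 3 reads. Its log2 fold change was -1.97 ± 0.34 (adjusted p = 0.0116), and -3.83 with a pseudocount of 0.1, where that of *Cyp2d10* was -2.69. Its relative *Cyp2j6* changed by -1.03 ± 0.27 (adjusted p = 0.0489). *Cyp2c68* was at 7.37, 0.06, 2.20, 0, 0.21, 1.92, 1.14 and 1.04 RPKM, and its estimate was -1.55 ± 0.40 (adjusted p = 0.0472). Of its transcript windows 43.3% recur in other enzymes, mostly *Cyp2c40*.

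All 6 tested Cyp3a genes had negative estimates, with a median of -1.23, and 2 were called. *Cyp3a11*, the main adult mouse counterpart of human CYP3A4, was at 3.75, 1.26, 8.80, 1.93, 0.23, 10.03, 2.92 and 1.84 RPKM. It was lower than its control in 5 of 5 L1L2_Alb libraries, and the log2 fold change was -1.78 ± 0.35 (adjusted p = 0.0202). *Cyp3a13*, which is also expressed in the intestine, was at 21.7, 10.3, 42.9, 18.9, 7.99, 33.2, 18.5 and 12.8 RPKM, lower by -1.28 ± 0.30 (adjusted p = 0.0339). *Cyp3a16* and *Cyp3a44* had estimates of -1.30 ± 0.43 and -1.05 ± 0.43 and were not called (adjusted p = 0.0993 and 0.163).

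The Cyp1 genes are classical targets of the aryl hydrocarbon receptor (AHR). *Cyp1b1*, an extrahepatic member that oxidises oestradiol, was at 14.4, 3.20, 4.00, 1.64, 0.46, 5.76, 2.83 and 3.51 RPKM, lower in 5 of 5 L1L2_Alb libraries by -1.26 ± 0.29 (adjusted p = 0.0341). *Cyp1a1* was at 20.5, 3.34, 4.45, 1.82, 0.24, 1.27, 2.55 and 0.89 RPKM. It lay lower in the L1L2_Alb libraries of iHB and iHP but on both sides of the control in iBEC, and was not called (-1.12 ± 0.49, adjusted p = 0.188). Among Cyp4 genes none of 8 was called, 3 having positive and 5 negative estimates. *Cyp4f13*, *Cyp4f16* and *Cyp4v3*, the 3 highest, had estimates of 0.50 ± 0.19, 0.20 ± 0.22 and -0.40 ± 0.16. Lower phase 2 enzymes were *Gstz1*, which acts in tyrosine breakdown, by -0.79 ± 0.18 (adjusted p = 0.0345), and the steroid sulfotransferase *Sult2a1*, by -1.10 ± 0.28 (adjusted p = 0.0432).

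The 4 enzymes called higher were raised in 5 of 5 L1L2_Alb libraries. *Gsto1* was at 217, 749, 182, 690, 1005, 50.4, 131 and 246 RPKM, an increase of 1.94 ± 0.25 (adjusted p = 0.00491). It was the highest Gst gene in the L1L2_Alb libraries of iHB and iHP, whereas *Gstp1* was the highest in the controls. *Ugt2b34* was at 55.5, 193, 41.3, 177, 241, 30.1, 56.6 and 65.8 RPKM, an increase of 1.68 ± 0.26 (adjusted p = 0.00833). *Cyp2s1*, a P450 of epithelia outside the liver, was at 25.7, 66.9, 12.2, 24.0, 28.5, 2.20, 16.7 and 12.9 RPKM, an increase of 1.58 ± 0.26 (adjusted p = 0.00979). It was the one P450 called higher. *Gstm2*, a mu-class glutathione transferase, was at 35.8, 54.3, 19.3, 37.1, 49.8, 21.8, 78.6 and 40.0 RPKM, an increase of 1.05 ± 0.26 (adjusted p = 0.0416).

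**Figure D3:**
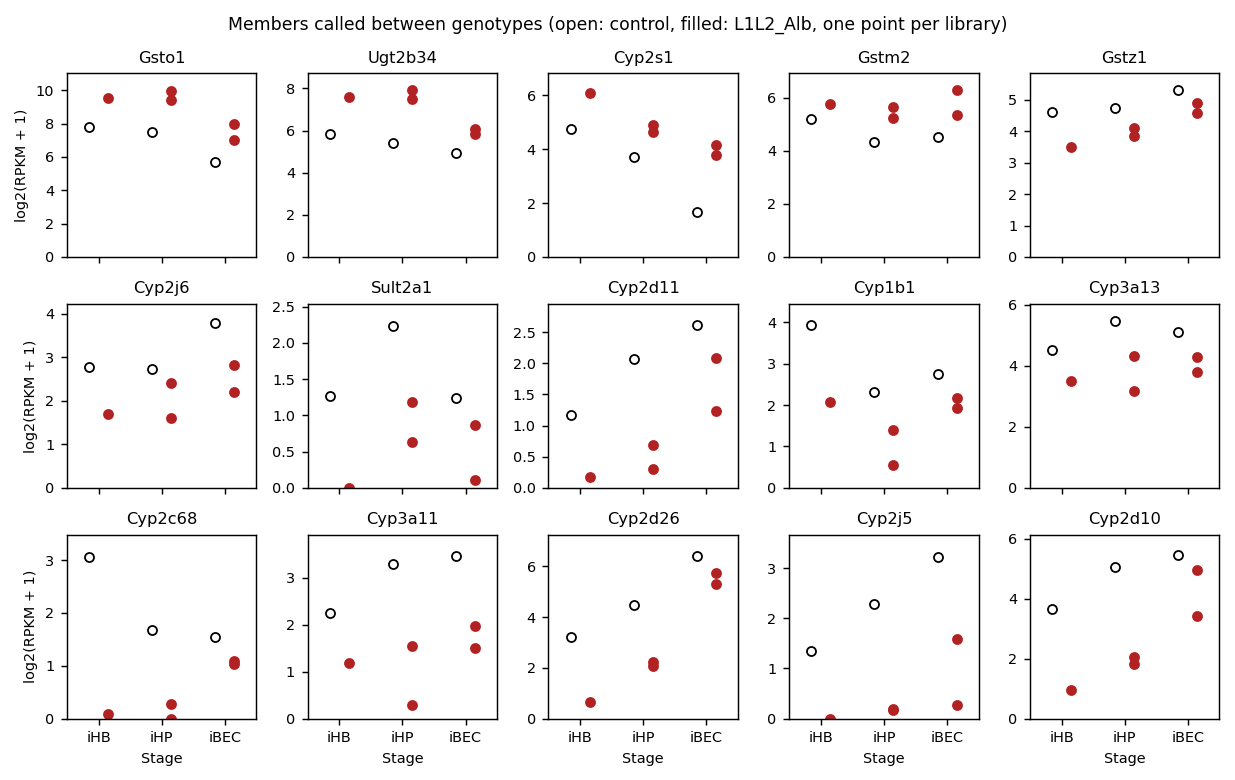
log2(RPKM + 1) of the 15 enzymes called between genotypes, 1 panel each, by stage (open circles, 1 control library per stage; filled circles, 1 or 2 L1L2_Alb libraries). The first 4 panels are those higher in L1L2_Alb and the other 11 those lower, and in every panel all filled circles of a stage lie on 1 side of its open circle.

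The count of called enzymes rested on single stages or libraries, and so did the surplus of lower over higher calls. Leaving out the only control of a stage, or L1L2_Alb iHB, takes that stage out of the comparison of genotypes. The estimate is then that of leaving out the whole stage, so the alternatives counted below are not all separate. The count fell to 2 without control iHP, 2 without L1L2_Alb iHB, 3 without control iHB, and 9 without either L1L2_Alb iHP 1 or L1L2_Alb iBEC 2, and rose to 24 without control iBEC. Without all iHP libraries it was 0, without iHB 2, and without iBEC 24. The 11 lower and 4 higher became 0 and 2 without control iHP, 1 and 2 without control iHB, 1 and 1 without L1L2_Alb iHB, and 21 and 3 without control iBEC. They were 6 and 4 with a pseudocount of 0.1, 4 and 4 at a mean of at least 5 RPKM, and 2 and 3 with no filter on low values. Over the alternatives *Gsto1* was called in 16 of 17, *Cyp2j5* in 14 of 16, *Cyp2s1* in 14 of 17, *Cyp2d26* and *Ugt2b34* in 12 of 17 and *Cyp2d10* in 11 of 17. The other 9 were called in 4 to 8, and the sign of none of the 15 changed under any.

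The promoters of these genes, from 250 bases before to 50 bases after the annotated start, are shown for enzymes that moved in each direction. They were read from RefSeq on the GRCm38.p6 assembly, which is newer than the assembly listed in the submitters' processing notes. Capitals mark matches on either strand to GCGTG (the AHR core), TGACNNNGC (the NRF2 element), GTTAAT (part of the HNF1 site), CAAAG (part of the HNF4 element) and GGAATG (the TEAD element). The paralogues *Cyp2d10* (chr15:82407145-82407444, minus strand), *Cyp2d11* (chr15:82393973-82394272, minus strand) and *Cyp2d26* (chr15:82794196-82794495, minus strand) show what the lower Cyp2d genes share.
Cyp2d10: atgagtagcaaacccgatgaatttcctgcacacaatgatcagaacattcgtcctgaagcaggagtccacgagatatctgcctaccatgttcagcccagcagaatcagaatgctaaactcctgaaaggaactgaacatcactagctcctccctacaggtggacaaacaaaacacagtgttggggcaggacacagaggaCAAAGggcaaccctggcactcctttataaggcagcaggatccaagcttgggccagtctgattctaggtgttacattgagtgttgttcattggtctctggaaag
Cyp2d11: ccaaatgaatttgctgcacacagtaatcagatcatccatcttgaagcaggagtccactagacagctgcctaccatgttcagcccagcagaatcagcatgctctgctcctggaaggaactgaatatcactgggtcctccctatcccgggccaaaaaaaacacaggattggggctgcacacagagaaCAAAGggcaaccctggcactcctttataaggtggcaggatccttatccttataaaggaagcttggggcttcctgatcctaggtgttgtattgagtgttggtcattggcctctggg
Cyp2d26: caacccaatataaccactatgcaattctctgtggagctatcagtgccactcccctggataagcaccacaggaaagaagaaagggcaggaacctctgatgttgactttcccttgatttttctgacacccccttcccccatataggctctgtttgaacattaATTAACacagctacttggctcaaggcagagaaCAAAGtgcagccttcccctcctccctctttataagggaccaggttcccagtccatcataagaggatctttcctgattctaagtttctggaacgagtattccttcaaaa

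In each of the 3 the CAAAG match lies shortly before a TATAA run. The longest stretch in common was 32 bases between *Cyp2d10* and *Cyp2d11*, 12 bases between *Cyp2d11* and *Cyp2d26* and 10 bases between *Cyp2d10* and *Cyp2d26*. *Cyp3a11* (chr5:145879805-145880104, minus strand) held 3 CAAAG matches, and *Cyp1b1* (chr17:79715012-79715311, minus strand) held 1 AHR core and 2 CAAAG matches. *Gsto1* (chr19:47854723-47855022, plus strand) and *Ugt2b34* (chr5:86906888-86907187, minus strand), both higher in L1L2_Alb, held 1 and 2 CAAAG matches and none of the other motifs.
Cyp3a11: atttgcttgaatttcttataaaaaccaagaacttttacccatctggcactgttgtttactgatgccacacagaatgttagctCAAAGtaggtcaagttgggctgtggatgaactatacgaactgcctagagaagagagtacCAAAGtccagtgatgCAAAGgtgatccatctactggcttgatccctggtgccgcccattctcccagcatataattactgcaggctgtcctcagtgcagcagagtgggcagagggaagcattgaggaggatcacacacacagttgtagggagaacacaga
Cyp1b1: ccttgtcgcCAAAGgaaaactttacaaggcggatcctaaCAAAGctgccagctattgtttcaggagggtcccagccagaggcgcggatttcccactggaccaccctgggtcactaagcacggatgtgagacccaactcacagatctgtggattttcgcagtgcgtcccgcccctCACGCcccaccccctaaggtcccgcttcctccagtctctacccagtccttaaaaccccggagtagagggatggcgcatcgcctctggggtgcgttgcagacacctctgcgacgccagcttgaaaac
Gsto1: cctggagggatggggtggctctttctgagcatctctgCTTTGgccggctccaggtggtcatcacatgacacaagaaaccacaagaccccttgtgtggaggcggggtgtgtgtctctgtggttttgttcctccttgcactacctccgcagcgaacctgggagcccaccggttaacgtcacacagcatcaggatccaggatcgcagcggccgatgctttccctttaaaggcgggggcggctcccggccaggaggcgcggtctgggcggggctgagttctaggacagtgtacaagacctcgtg
Ugt2b34: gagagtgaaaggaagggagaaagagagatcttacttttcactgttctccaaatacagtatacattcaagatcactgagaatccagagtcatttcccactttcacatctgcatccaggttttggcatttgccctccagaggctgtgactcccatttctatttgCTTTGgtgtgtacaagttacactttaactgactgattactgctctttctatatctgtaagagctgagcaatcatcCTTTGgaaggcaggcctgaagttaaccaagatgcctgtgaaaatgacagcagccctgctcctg

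A promoter was given for 110 of the 130 enzymes. CAAAG was found for 77.3% of them, against 57.4% of 27025 genes. It was found for 10 of the 10 lower enzymes with a promoter and for 2 of the 4 higher ones, *Gsto1* and *Ugt2b34*. Any gene with several annotated promoters was counted if at least 1 of them held a match. *Gstz1* was counted in this way, since its other promoter held no CAAAG. The HNF1 letters were found for 19.1% of enzymes against 8.24% of genes, the AHR core for 20.0% against 35.2%, the NRF2 element for 8.18% against 14.0%, and the TEAD element for 18.2% against 16.6%. Among the 15 called enzymes, the TEAD element was in the promoters of *Cyp2j6* and *Gstm2*. Paralogues share promoter letters, so these counts are not of independent promoters, and a match is a run of letters and not a measured binding site.

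Enzymes at least 2-fold lower were more numerous in iHB and iHP than in iBEC, as such genes were over the whole table. Taken within 1 stage, where the control is a single library and no test was made, 27 of the 67 tested enzymes were at least 2-fold lower in L1L2_Alb iHB, against 8.99% of all genes tested, and 3 were at least 2-fold higher, against 5.60%. In iHP the mean of both L1L2_Alb libraries was 2-fold lower for 33 enzymes, against 11.5% of genes, and 2-fold higher for 6, against 7.71%. The Ugt1a entries, which share reads, made up 8 of those 33. In iBEC 8 were 2-fold lower, against 2.49% of genes, and 6 were 2-fold higher, against 6.67%. With L1L2_Alb iHP 1 alone 3 were 2-fold higher in iHP, and with L1L2_Alb iBEC 1 alone 11 were in iBEC.

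The median difference over the tested enzymes was -0.72 in iHB and -0.77 in iHP, with all genes at -0.09 and -0.01. In iBEC it was 0.19, with all genes at 0.25. The libraries were on both sides of 0 there, at 0.47 in L1L2_Alb iBEC 1 and -0.16 in L1L2_Alb iBEC 2, and after upper-quartile scaling, which took the median of all genes to 0.02, the median of both was -0.04. In iHB and iHP the Cyp1, Cyp2, Cyp3, Cyp4, Ugt1a and Sult medians lay below 0, at -0.36 to -2.09. For Cyp3 the median went from -1.29 in iHB and -1.87 in iHP to -0.20 in iBEC, and for Sult from -1.27 and -1.37 to 0.23, the latter turning to -0.03 after upper-quartile scaling. The iBEC libraries differed in sign for both, at 0.25 and -0.76 for Cyp3 and 0.40 and -0.37 for Sult. The Cyp2 median was -1.10, -1.54 and -0.53 in iHB, iHP and iBEC, and that of Ugt2 was -0.08, 0.09 and -0.81, lowest in iBEC. The medians of Gst were -0.44, -0.04 and 0.52. The difference between stages was tested by the interaction of stage and genotype, which called 0 of 13421 genes (0%) and none of the enzymes by limma, with 733 genes and 12 enzymes at an unadjusted p under 0.05. The design has 2 residual degrees of freedom for that test.

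**Figure D4:**
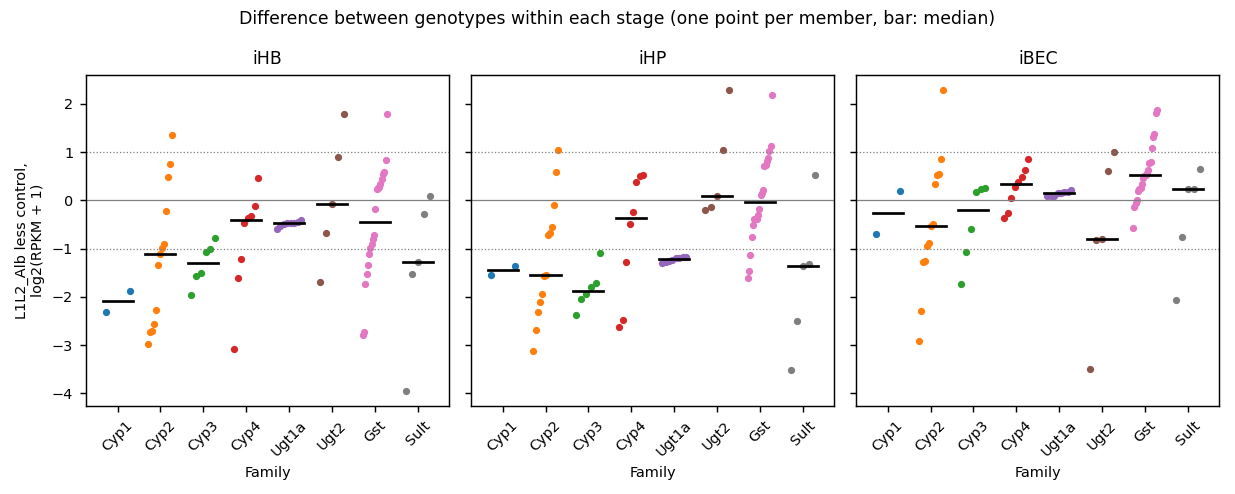
Difference between L1L2_Alb and control in log2(RPKM + 1) (vertical axis) for the 67 tested enzymes by family, in iHB, iHP and iBEC (panels). Points are enzymes, with the mean of 2 L1L2_Alb libraries in iHP and iBEC; black bars are family medians and dotted lines mark 2-fold. The Cyp3 points all lie below -0.7 in iHB and iHP and straddle 0 in iBEC, and the Ugt1a points form 1 flat run in each panel.

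Of the tested enzymes, *Sult1a1* had the widest such contrast between iHP and iBEC. It was at 230, 14.0, 538, 57.6, 36.8, 203, 269 and 212 RPKM. L1L2_Alb libraries were thus far below the control in iHB and iHP and at or just above it in iBEC, and across stages the estimate of -2.27 ± 0.69 was not called (adjusted p = 0.0765; 0.264 for the interaction). Without control iBEC or all iBEC libraries it was called, with an estimate of -3.70. *Sult1d1*, a catecholamine sulfotransferase, was at 5.00, 1.09, 14.9, 3.24, 0.86, 12.7, 26.2 and 8.41 RPKM. Summed over the Sult family, the level was 239, 17.1, 564, 66.6, 43.0, 328, 323 and 261 RPKM.

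The Gst family was the largest part of the enzyme RNA, at a summed 1019 to 1881 RPKM. Of 20 tested, 10 estimates were positive and 10 negative, with a median of 0.09, and *Gsto1*, *Gstm2* and *Gstz1* were called. Without *Gsto1* the sum was 1059, 520, 1086, 676, 876, 969, 1469 and 1003 RPKM, and with it 1277, 1269, 1268, 1366, 1881, 1019, 1600 and 1249 RPKM. In iHB and iHP the L1L2_Alb libraries thus lay below their control without *Gsto1*. With it the iHB library lay near its control and both iHP libraries lay above theirs. *Gsta3*, an alpha-class enzyme, was at 147, 20.5, 154, 49.1, 62.0, 41.9, 100 and 52.6 RPKM. It went below the control in the L1L2_Alb libraries of iHB and iHP and above it in those of iBEC, and was not called (-1.01 ± 0.55, adjusted p = 0.296). It was called without control iBEC, at -2.03. *Gsta4*, which clears the lipid peroxidation product 4-hydroxynonenal, was at 12.1 RPKM in control iBEC and 47.3 and 46.4 RPKM in L1L2_Alb iBEC, with 10.4 to 18.2 RPKM in iHB and iHP (0.52 ± 0.41, adjusted p = 0.473). *Gstm1* had an estimate of -0.80 ± 0.36 (adjusted p = 0.209) and *Gstp1* of -0.39 ± 0.26 (adjusted p = 0.392). *Gstp1* and *Gstp2* share sequence, 51.0% of the windows of *Gstp1* recurring in *Gstp2*.

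The 8 Ugt1a entries are alternative first exons joined to shared exons of a single locus that includes the bilirubin-conjugating *Ugt1a1*, and their values were nearly parallel. The entry with the fewest reads, *Ugt1a10* or *Ugt1a9*, held 53.8% to 69.9% of the reads of the highest, *Ugt1a7c*, in the same library. They are therefore described as 1 measurement and not as 8. *Ugt1a1* was at 8.90, 6.11, 8.44, 3.29, 2.54, 15.0, 22.4 and 11.6 RPKM, lowest in L1L2_Alb iHP. No entry was called between genotypes, with estimates from -0.49 to -0.58. The reads of *Ugt1a1* beyond those of the lowest entry numbered 61, 46, 117, 28, 12, 363, 415 and 124.

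**Figure D5:**
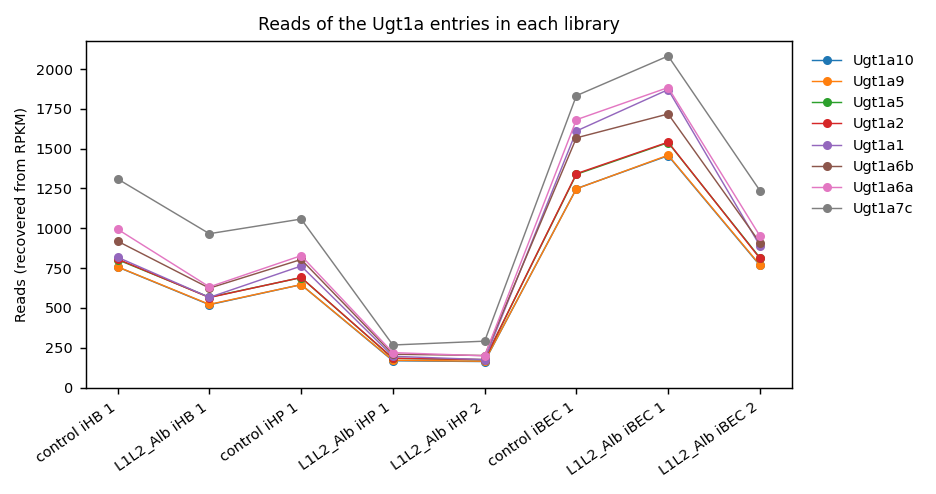
Reads of each of the 8 Ugt1a entries (vertical axis, recovered from RPKM) in the 8 libraries; lines only join the points of an entry. All 8 fall to 163 to 291 reads in the L1L2_Alb iHP libraries and reach 1456 to 2082 reads in L1L2_Alb iBEC 1, keeping nearly the same order.

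The Ugt2 genes did not move together. Beside *Ugt2b34*, *Ugt2b35* was at 12.1, 23.4, 9.81, 22.0, 20.4, 6.55, 7.28 and 15.2 RPKM, above the control in 5 of 5 L1L2_Alb libraries but not called (0.84 ± 0.24, adjusted p = 0.0673). *Ugt2b37* was at 35.4 RPKM in control iBEC, 0.86 and 4.58 RPKM in L1L2_Alb iBEC and at most 0.60 RPKM elsewhere (-1.37 ± 0.67, adjusted p = 0.244). The family sum was 73.6, 218, 53.8, 200, 266, 84.5, 66.7 and 91.6 RPKM. *Ugt2b34* was the highest member in 7 of the 8 libraries, and *Ugt2b37* in control iBEC.

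Between stages, the iBEC libraries held more Cyp2 RNA, at a summed 154 to 360 RPKM against 75.2 to 141 RPKM in iHB and iHP. Among the controls, the hepatocyte marker *Alb* was also highest in iBEC, at 6162 RPKM. Of the BEC markers, *Krt7* and *Krt19* were lowest in control iBEC, at 62.3 and 83.7 RPKM, while *Spp1* was highest, at 23271 RPKM. The part of each cell type in the stage differences was not tested. Of the 67 tested enzymes, 10 were higher and 3 lower in iBEC than in iHB with the genotype in the model, against 2.94% and 2.78% of all genes. The median log2 fold change over all genes was -0.25 here, and -0.01 after upper-quartile scaling, which called 12 enzymes. Of the 10, 6 were Cyp2 genes. *Sult1e1*, the oestrogen sulfotransferase, rose most, by 5.43 ± 0.47 (adjusted p = 0.00113), from at most 2.84 RPKM in iHB and iHP to 105, 19.9 and 29.7 RPKM in iBEC. *Cyp2d26* rose by 4.19 ± 0.39 (adjusted p = 0.00138) and *Cyp2d9* by 3.19 ± 0.55 (adjusted p = 0.0148). Those lower in iBEC were *Cyp2s1*, by -2.47 ± 0.32 (adjusted p = 0.00472), *Gsto1*, by -2.09 ± 0.32 (adjusted p = 0.00847), and *Ugt2b34*, by -1.37 ± 0.32 (adjusted p = 0.0462).

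Against iHP, 12 enzymes were higher in iBEC and 2 lower, with 2.45% and 1.67% of all genes. The Ugt1a entries made up 8 of the 12, at 1.48 to 1.68, and count as 1 measurement. *Sult1e1* was higher by 4.33 ± 0.42 (adjusted p = 0.00487), *Cyp2d26* by 2.91 ± 0.35 (adjusted p = 0.0076), *Cyp2f2*, a naphthalene-oxidising P450 of airway and liver, by 2.06 ± 0.33 (adjusted p = 0.0167) and *Gsta1* by 1.43 ± 0.25 (adjusted p = 0.0238). *Gsto1* and *Ugt2b34* were lower, by -2.08 ± 0.28 (adjusted p = 0.0112) and -1.31 ± 0.28 (adjusted p = 0.0447). Culture in Matrigel and the longer time in culture cannot be told apart from the stage.

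Between iHP and iHB, limma called 0 of 13421 genes (0%) and none of the enzymes, with 1158 genes and 10 enzymes at an unadjusted p under 0.05. All 6 Cyp3 genes had positive estimates, with a median of 0.74, and both Cyp1 genes negative ones, with a median of -1.52, where all genes had a median of -0.15. In the controls *Cyp3a44* went from 3.56 RPKM (iHB) to 19.8 RPKM (iHP), and it was at 0.60 RPKM in L1L2_Alb iHB and 6.00 and 3.23 RPKM in L1L2_Alb iHP (1.83 ± 0.53, adjusted p = 0.420).

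Counts between stages moved with single libraries. For iBEC against iHB, 13 fell to 2 without either iHB library and to 8 without L1L2_Alb iHP 1 or L1L2_Alb iBEC 2. For iBEC against iHP, 14 fell to 3 to 5 without either iHB library, either L1L2_Alb iHP library or either L1L2_Alb iBEC library, and rose to 23 without control iBEC. *Cyp2d26* and *Sult1e1* stayed called in all 14 alternatives of both comparisons, and *Gsto1* in all 14 of iBEC against iHP. *Ugt2b34* was called in 5 of 14 against iHB and 4 of 14 against iHP, upper-quartile scaling and the fit without the trend being among those that lost it, and *Gsta1* in 7 of 14 against iHP.

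The genes that work beside these enzymes were described from lists of their own. Over all genes tested, 3.37% were called lower and 6.20% higher in L1L2_Alb, the shares to set beside the counts of this and the following lists. Of the regulators of xenobiotic genes, 21 were tested, of which 5 were lower and 1 was higher in L1L2_Alb. *Hnf4a*, the nuclear receptor of hepatocyte genes, was at 48.4, 20.2, 64.4, 23.7, 22.4, 99.5, 35.4 and 45.6 RPKM (-1.33 ± 0.16, adjusted p = 0.00373). *Nr1i2*, the pregnane X receptor that activates Cyp3a genes, was at 6.52, 1.52, 9.38, 1.95, 3.23, 10.7, 6.66 and 5.00 RPKM (-1.28 ± 0.25, adjusted p = 0.0176). *Nr5a2* and *Foxa3* were the others of the 4 lowest by p, at -1.51 ± 0.24 and -1.30 ± 0.23 (adjusted p = 0.00904 and 0.0122). Whether these regulators bear on the enzymes was not tested.

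Of 26 other phase 1 enzymes tested, 4 were called higher and 1 lower, with 9 positive and 17 negative estimates. *Maoa*, a monoamine oxidase, *Aldh1a1*, which makes retinoic acid, and *Ephx2*, an epoxide hydrolase, were higher by 2.82 ± 0.35, 2.56 ± 0.34 and 1.14 ± 0.18 (adjusted p = 0.00397, 0.0049 and 0.00979). Of 22 other phase 2 enzymes and cofactor genes, 2 were higher and 4 lower, with *Glyat*, *Baat* and *Mgst1* at -1.74 ± 0.26, -1.72 ± 0.29 and -1.37 ± 0.25 (adjusted p = 0.00782, 0.0116 and 0.0148) and *Papss2*, which makes the sulfate donor, at 1.05 ± 0.18 (adjusted p = 0.0109). Of 14 transporters 3 were higher and none lower, *Slco2a1* by 2.10 ± 0.17 (adjusted p = 0.00093). Of 5 genes for partners of P450, *Cyb5r3* was higher by 0.85 ± 0.22 (adjusted p = 0.0472).

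Markers of the cell types in such cultures moved with the genotype too. Of 9 tested hepatocyte markers, 4 were lower in L1L2_Alb, among them *Alb* at 2485, 524, 3088, 568, 526, 6162, 5499 and 3357 RPKM, and none was higher. The sum of the 10 listed ran from 12048 to 17212 RPKM in controls and 10327 to 13635 RPKM in L1L2_Alb. Among the tested BEC markers, *Krt7* and *Krt19* were higher and *Spp1* was lower, with sums of 2464 to 23446 and 2331 to 11732 RPKM. None of 10 mesenchymal markers was called, all 10 estimates being negative, with sums of 2674 to 4666 RPKM in controls and 744 to 3791 RPKM in L1L2_Alb. Macrophage markers summed to 1163 to 2409 and 852 to 3094 RPKM, and endothelial markers to 8.21 to 24.1 and 3.01 to 22.1 RPKM. Erythroid markers summed to 4.18 to 151 and 2.60 to 27.6 RPKM, and 2 of 3 tested were lower. These 2, *Hbb-b1* and *Hbb-bs*, had the same estimate and nearly equal values in every library. They therefore count as 1 measurement, and both are in the sums. No marker was at 0 in every library, while some, such as *Tdo2*, *Clec4f*, *Slc4a1*, *Stab2* and *Emcn*, were at 0 in some libraries. The part of these cells in the enzyme values was not tested.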

How the data were processed

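RNA-seq gave 8 libraries of cultured mouse fetal liver cells. The authors deposited 1 table of RPKM per gene; the submitters' processing notes list Bowtie 0.12.2 and mm8 without their roles, and the counting method and annotation are not given in the sources used here. Of 23471 rows, 4 of repeated symbols were left out. Because RPKM is not a count, log2(RPKM + 1) was fitted with limma 3.58.1 (R 4.3.3; empirical Bayes with a trend) over 13421 genes averaging 1 RPKM or more, with stage and genotype as terms, and with all 6 groups for the interaction. Calls needed a Benjamini-Hochberg adjusted p under 0.05 over all genes tested. Library totals and whole reads (within 0.01) were recovered from the steps between low values, for 121 of the 130 enzymes, and carry counting error only. The fit was tested on simulated data. Single-stage differences are means of log2(RPKM + 1). Enzymes named are those called between genotypes, the 3 highest of each family, the most changed called ones between stages, those at 1 RPKM in 1 library, and a short list of well-known ones; *Cyp2c70*, *Gsta1*, *Gsta3*, *Ugt1a9*, *Ugt1a10* and the enzymes with no read lie outside this rule and were named after their values were seen. The rule for members used symbols only, but the set and the other lists were chosen with earlier results of these data known. Alternatives were another pseudocount, scaling and filter, no trend, a replicate block and leaving out libraries or stages. A few genes of the other lists are not reported here.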

Additional observations from a re-analysis of the deposited data

Results flagged for a closer look

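For 3 of the named enzymes, both L1L2_Alb iHP libraries lay below their control and both L1L2_Alb iBEC libraries above theirs. The log2 difference between genotypes of *Sult1a1* was -3.52 in iHP and 0.23 in iBEC, which made 3.75 between the stages. For *Gsta3* it was -1.46 and 0.779, which made 2.24. For *Cyp2f2* it was -0.55 and 0.54, which made 1.09. The interaction of stage and genotype called none of them, with adjusted p by limma of 0.264, 0.46 and 1 and unadjusted p of 0.000374, 0.00342 and 0.0818. Over the tested enzymes 8 of 67 (11.9%) showed this pattern, against 14.4% of all genes tested. The 3 stages had 1 control library each, so no group held enough libraries for a search for outlying samples.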

How the results depend on the processing

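Of the 766 alternative values of single enzymes, 601 kept both direction and call, 148 lost and 15 gained the call, and 2 reversed, both for *Gsta4*. Its estimate went from 0.52 to -0.245 without control iBEC and without the iBEC stage and lay between that and 0.986 over all libraries left out. Leaving out control iBEC takes the iBEC stage out of the comparison of genotypes, so both reversals are the same estimate. The 15 enzymes called between genotypes became 5 with no filter on low values and 8 with a mean of at least 5 RPKM, 2 without the iHB stage, 0 without the iHP stage, 24 without the iBEC stage and 2 to 24 as single libraries were left out. Asking for a 2-fold change as well, another pseudocount, upper-quartile scaling and a fit without the trend kept it within 1.5 times. For iBEC against iHB the 13 became 6 with no filter and 2 to 15 without single libraries, and for iBEC against iHP the 14 became 5 with no filter and 3 to 23. For 2-fold higher enzymes, the 6 in iHP became 3 to 7 without one of its L1L2_Alb libraries, and the 6 in iBEC became 6 to 11, and 11 with a pseudocount of 0.1. The counts at 1 RPKM stayed within 1.5 times after upper-quartile scaling and at 0.5 RPKM, and no alternative called any enzyme between iHP and iHB or in the interaction.

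L1L2_Alb iHP and iBEC libraries of the same number in the titles did not deviate together (correlation -0.0216 over 13421 genes). With only 1 pair of libraries in each of these stages, this cannot decide whether libraries of the same number share an origin. With the replicate block the calls were 14 between genotypes, 11 for iBEC against iHB and 8 for iBEC against iHP. With 1 control library a stage, a lone library was assumed to vary like the other groups, and genes of a few reads had little precision.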
